A study of Mus musculus with 4 samples.

Results

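Klhl15, its cullin partners and its reported substrates were followed in ribosome profiling (Ribo-seq) data of mouse myoblasts. The 5 genes, Klhl15, Cul3, Rbx1, Ppp2r5b and Rbbp8, were found by gene name among the 55573 genes of the deposited table, and each name matched 1 row. The group was chosen by the values of these same libraries, in which Klhl15 differed between the groups. The differences between groups given for the 5 genes are therefore a description without a test, and no p-value is attached to them.

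Ubiquitin ligases of the cullin-RING kind mark proteins for degradation by the proteasome. In the Cul3 branch, Cul3 is the scaffold, Rbx1 is the RING subunit that recruits the ubiquitin-conjugating enzyme, and a protein with a BTB domain binds both Cul3 and the substrate. Klhl15 is such an adaptor, with a BTB domain and Kelch repeats. Its reported substrates include Ppp2r5b, the B56 beta regulatory subunit of the phosphatase PP2A, and Rbbp8, also called CtIP, which starts the resection of broken DNA ends. Doublecortin (Dcx) and its relatives Dclk1 and Dclk2 have been reported as further substrates. A Phe-Arg-Tyr tripeptide in Rbbp8 is reported to be needed for recognition by Klhl15, and so is a tyrosine near the N terminus of Ppp2r5b. In muscle stem cells, Pax7 marks the quiescent and activated cells, whose cultured progeny are called primary myoblasts.

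The data were 4 libraries of ribosome-protected mRNA fragments, 2 per group, from primary myoblasts isolated from 3-week-old mice and cultured for 2 days in medium with 10% serum and FGF at 10 µg/ml. The KO libraries were labelled as eIF5A knockout, from Pax7 CreERT2/+; eIF5A f/f mice given tamoxifen, in which recombination is restricted to cells that express Pax7, so that other cells in the culture keep the gene. The WT libraries came from littermate controls, whose genotype the study gives once as carrying the Cre allele without floxed eIF5A and once as floxed without Cre. Elongation was stopped in both groups with cycloheximide at 100 µg/ml, for 10 min in the sample labels and for 1 min in the description of the series. Whether the 2 libraries of a group came from separate mice was not stated, so every error below measures only the spread between these libraries.

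The libraries held between 642429 and 704006 reads assigned to genes, of which protein-coding genes took 41.5% and 33.9% in WT replicates 1 and 2 and 65.4% and 59.2% in KO replicates 1 and 2. Values are RPKM, reads per kilobase of gene length, which the authors had scaled to equalise the typical gene across libraries rather than to the total of reads. Eif5a, the targeted gene, received 50 and 73 reads in WT against 130 and 114 under the KO label, or an RPKM of 34.9 and 65.2 against 60.3 and 59.4. Its log2 difference over the whole gene was 0.32 ± 0.48 (SE), with an adjusted p of 0.839 (limma, Benjamini-Hochberg). The targeted gene was not lower in the libraries labelled KO, and every direction below is drawn between labels that its footprints do not separate. Values over the whole gene do not show whether these reads fell in the deleted part or came from near-identical copies of Eif5a. Of 10 myoblast markers, 8 were tested, of which 7 stood lower under the KO label. The list summed to an RPKM of 244 and 195 in WT against 119 and 130. The fall in these sums lay mostly in Myod1, at 139.9 and 117.5 against 48.6 and 79.8, and Des, at 45.95 and 40.1 against 13.8 and 21.4. Vcam1 was higher, with a log2 difference of 0.92. Itga7, counted as lower, stood at -0.017 with overlapping groups. Pax7 had 30 and 10 reads in WT against 5 and 7. Of 10 fibroblast markers, 7 were higher, with sums of 476 and 300.2 against 805 and 361, and of 8 endothelial markers, 7 were higher, with sums of 228 and 334 against 321 and 406. Of 8 immune markers, 4 were tested, of which 2 were higher and 2 lower. The sums over all 8 ranged from 45.7 to 60.6, and C1qa and Itgam had 0 reads in every library. The part of these cell markers in the differences below was not tested. In such bulk libraries, fewer cells of a type, less of an mRNA per cell and fewer ribosomes on each mRNA cannot be told apart.

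The stretches that encode a Phe-Arg-Tyr tripeptide or a proline run in Ppp2r5b and Klhl15 are shown as the coding strand of the GRCm38 genome, 5′ to 3′, with the 9 bases of interest in capitals. For each gene, the longest complete reading frame in GENCODE vM21 was searched. The first and second encode Phe-Arg-Tyr, in Ppp2r5b at residues 50 to 52 of 497 (chr19:6234664-6234693, minus strand) and in Klhl15 itself at residues 350 to 352 of 604 (chrX:94272689-94272718, plus strand). The third encodes the 3 consecutive prolines of Ppp2r5b at residues 23 to 25 (chr19:6234745-6234774, minus strand). It is shown because eIF5A is known to help ribosomes through runs of prolines.
Ppp2r5b, Phe-Arg-Tyr: tcttctcagTTCCGCTATcagagcaaccag
Klhl15, Phe-Arg-Tyr: tcgaaagtgTTCAGGTATgatccaagacaa
Ppp2r5b, prolines: tctccagtgCCACCACCAgacaaggtggat

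The tripeptide was also found once in Rbbp8, at residues 836 to 838 of 893, so that it lies close to the C terminus there and close to the N terminus in Ppp2r5b. Neither Cul3, of 768 residues, nor Rbx1, of 108 residues, held it. The 4 paralogs of Ppp2r5b, Ppp2r5a, Ppp2r5c, Ppp2r5d and Ppp2r5e, lacked it as well. Of the further substrates, Dcx held it at residues 257 to 259 and Dclk1 at residues 263 to 265, while the longest Dclk2 protein had none. For scale, 591 of 21523 mouse proteins, or 2.75%, held the tripeptide, so that a match on its own is a description and not a recognition site. A run of at least 3 prolines was present in 25.8% of the 9851 proteins of tested genes and, among the 5 studied here, in Ppp2r5b alone. Klhl15 had no 2 prolines in a row.

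**Figure D1:**
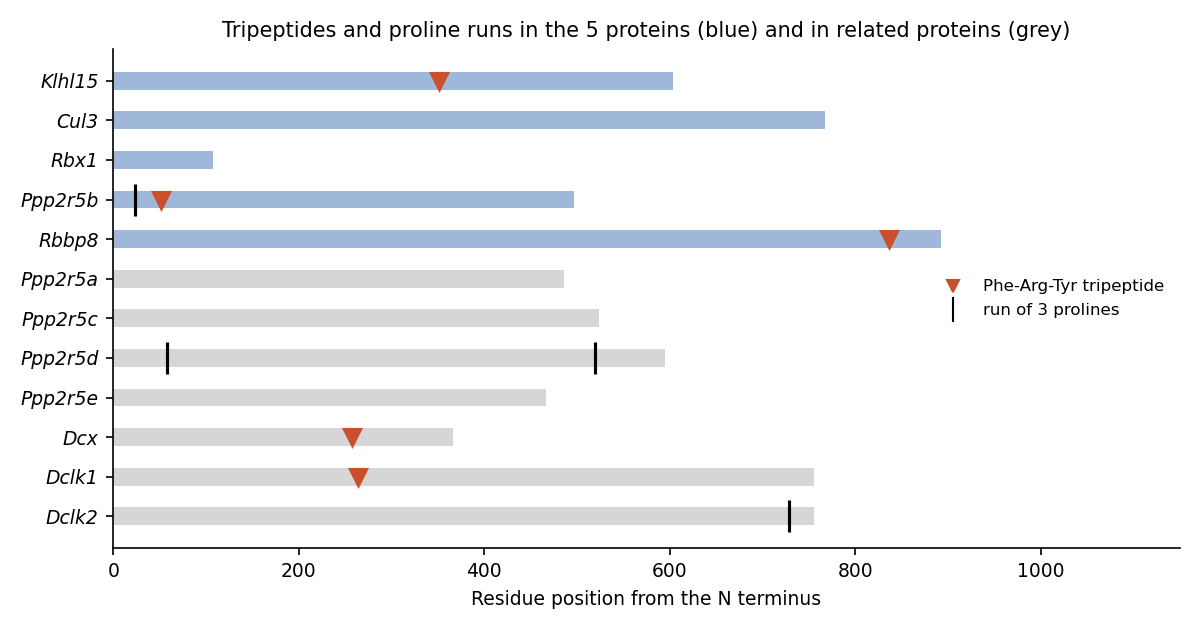
Bars show the length in residues, from the N terminus on the x axis, of the 5 proteins (blue) and of related proteins (grey), with triangles at Phe-Arg-Tyr tripeptides and black lines at runs of 3 prolines. The tripeptide stands at residues 50 to 52 of Ppp2r5b, 350 to 352 of Klhl15 and 836 to 838 of Rbbp8, and neither Cul3 nor Rbx1 has one.

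Klhl15 (ENSMUSG00000043929) lies on the plus strand of chromosome X, from 94234599 to 94277724 in GRCm38. Its footprints numbered 65 and 78 reads in WT replicates 1 and 2, and 19 and 21 reads in KO replicates 1 and 2. The RPKM was 11.1 and 17.0 in WT, with exact Poisson 95% intervals of 8.54 to 14.1 and 13.4 to 21.2. In the libraries labelled KO it was 2.15 and 2.67, with intervals of 1.29 to 3.36 and 1.65 to 4.08. Both KO values lay below both WT values, and no interval of one group reached an interval of the other. The group means were 14.0 ± 4.19 in WT and 2.41 ± 0.367 in KO (SD, n = 2), a WT level 5.82 times the KO level. On the log2(RPKM + 1) scale, the difference KO minus WT was -2.12 ± 0.39 (SE). This placed Klhl15 at position 288 from the lowest among the 11363 genes tested, those whose RPKM averaged at least 1, and at 93 among the 6829 of these with at least 40 reads over the 4 libraries. These reads carry no molecular identifiers, so all intervals cover counting error only.

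The level of Klhl15 relative to other genes of the same library differed in the same way. It stood above 77.8% and 85.5% of the protein-coding genes tested in WT replicates 1 and 2, and above 25.8% and 31.0% in KO replicates 1 and 2. Much of the gene length of 9741 bases is noncoding. Per kilobase of the 1815 coding bases, the level was 59.4 and 91.2 in WT and 11.5 and 14.3 in KO. Reads could not be placed within the gene from these values, so footprints in the coding part and in the rest cannot be told apart. The microRNA gene Mir7673, which lies inside Klhl15 on the same strand, had 0 reads in every library.

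Eif2s3x and Zfx, which lie near Klhl15 at lower coordinates of the X chromosome, were picked after their values were seen and did not share its difference. Single genes on the other side of Klhl15 were not looked at. Eif2s3x, an initiation factor gene, had 21 and 16 reads in WT against 55 and 25 in KO, with a log2 difference of 0.31 and an adjusted p of 0.828 (limma, Benjamini-Hochberg). Zfx, a zinc finger gene, had 8 and 1 reads in WT against 16 and 19, with a log2 difference of 0.97 and an adjusted p of 0.697 (limma, Benjamini-Hochberg). Over the 296 X-linked protein-coding genes tested, the median log2 difference was 0.25, and over the 9570 autosomal ones 0.043. Transcripts of both sexes were present in each library, with 12, 3, 46 and 11 reads of Xist and 11, 10, 46 and 36 reads of the Y-linked Ddx3y in the order WT 1, WT 2, KO 1 and KO 2.

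**Figure D2:**
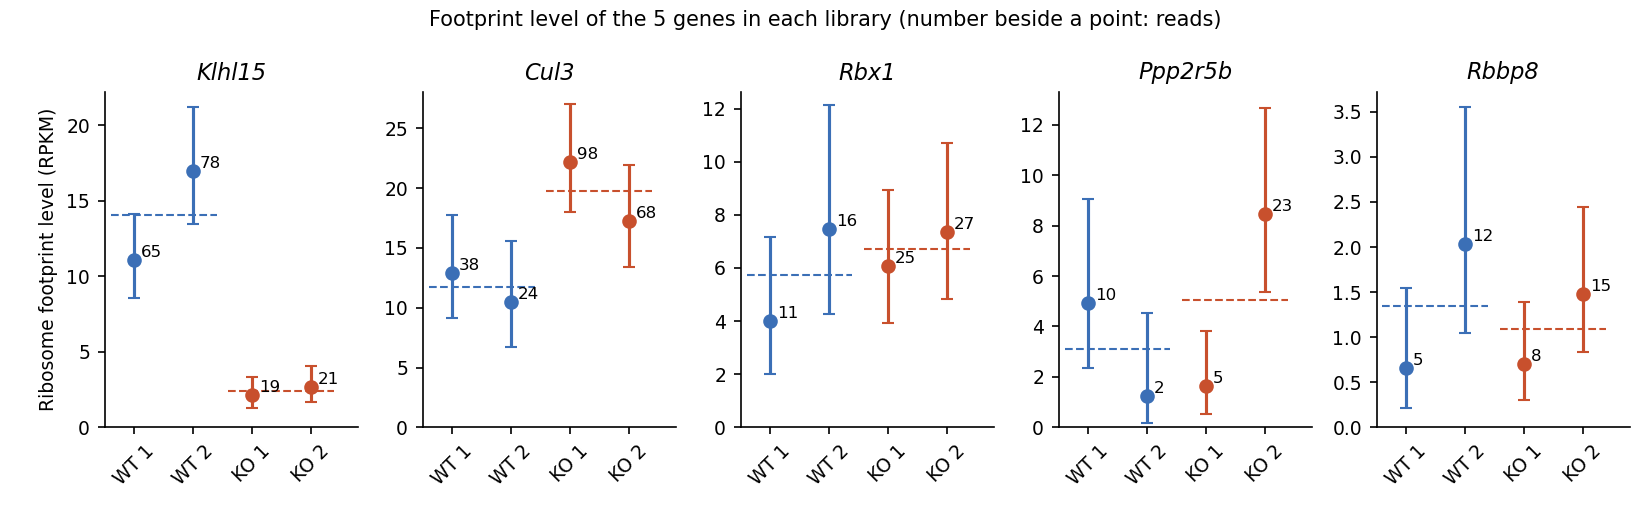
Points show the RPKM (y axis, from 0, with its own range in each panel) of each of the 5 genes in each library, with exact Poisson 95% intervals, dashed lines at the group means of n = 2 and the number of reads beside each point. Both KO points of Klhl15 (2.15 and 2.67) lie below both WT points (11.1 and 17.0), both KO points of Cul3 lie above the WT points, and the groups overlap for Rbx1, Ppp2r5b and Rbbp8.

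Cul3, the scaffold (ENSMUSG00000004364), lies on the minus strand of chromosome 1, from 80264923 to 80340480. It received 38 and 24 reads in WT against 98 and 68 in KO. The RPKM was 12.9 and 10.5 in WT, with intervals of 9.15 to 17.8 and 6.70 to 15.6, against 22.2 and 17.3 in KO, with intervals of 18.0 to 27.0 and 13.4 to 21.9. The direction was the opposite of that of Klhl15, and the groups did not overlap, but the interval of KO replicate 2 reached those of both WT replicates. The means were 11.7 ± 1.75 and 19.7 ± 3.46 (SD, n = 2), a KO level 1.69 times the WT level, and the log2 difference was 0.70 ± 0.39 (SE). The GC content of its coding sequence, 39.8%, was above that of only 0.925% of the protein-coding genes tested. With a trend on GC content and coding length removed from all genes, the difference was 0.29 ± 0.36 (SE). For Klhl15, with 44.0% GC and the percentile 8.02, that removal gave -2.44 ± 0.39 (SE).

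Rbx1, the RING subunit (ENSMUSG00000022400), lies on the plus strand of chromosome 15, from 81466296 to 81476369. It received 11 and 16 reads in WT against 25 and 27 in KO. Its RPKM was 4.01 and 7.46 in WT and 6.06 and 7.35 in KO, so that both KO values lay between the WT values. The means were 5.74 ± 2.44 and 6.70 ± 0.911 (SD, n = 2), and the log2 difference, 0.24 ± 0.42 (SE), was smaller than its error. A processed copy of the gene, Rbx1-ps, was listed at 0 in every library.

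A ratio of genes within 1 library does not depend on how libraries were scaled. Per gene length, Klhl15 stood at 0.856 and 1.63 times Cul3 in WT replicates 1 and 2 and at 0.0970 and 0.154 times Cul3 in KO replicates 1 and 2. Per coding length the same ratio was 2.17 and 4.13 in WT and 0.246 and 0.393 in KO. Which of the pair stood higher thus depended on the length used in WT replicate 1, while Klhl15 stood higher in WT replicate 2 and Cul3 in both libraries labelled KO on either length. The ratio was lower in each library labelled KO than in each WT library. It is built on the Klhl15 values by which that gene was chosen, so its fall is a description only. The ratio of Rbx1 to Cul3 per coding length was 2.04 and 4.70 in WT and 1.80 and 2.80 in KO, and these groups overlapped.

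**Figure D3:**
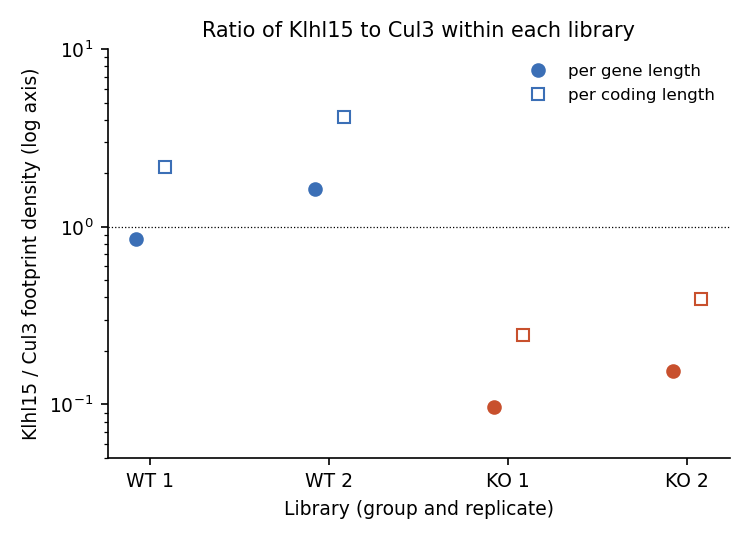
The ratio of the footprint density of Klhl15 to that of Cul3 (log y axis) is shown in each library (x axis), per gene length as filled circles and per coding length as open squares, with the dotted line at 1. Per coding length the WT libraries lie above 1, at 2.17 and 4.13, and the libraries labelled KO below it, at 0.246 and 0.393.

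Ppp2r5b, the PP2A subunit (ENSMUSG00000024777), lies on the minus strand of chromosome 19, from 6227765 to 6235872. Only 10 and 2 reads were assigned to it in WT, against 5 and 23 in KO. The RPKM of 4.92 and 1.26 in WT and of 1.63 and 8.44 in KO differed more within a group, by 3.91 and 5.17 times, than between the group means of 3.09 ± 2.59 and 5.04 ± 4.82 (SD, n = 2). The log2 difference was 0.45 ± 0.77 (SE). WT replicate 2 lay under the floor of 3 reads below which a level was not told from 0, and the single proline run of the 5 proteins belongs to this thinly covered gene.

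Rbbp8, the resection factor (ENSMUSG00000041238), lies on the plus strand of chromosome 18, from 11633276 to 11745221, and had the lowest mean level of the 5 genes per gene length, although Ppp2r5b was lower in WT replicate 2. It received 5 and 12 reads in WT against 8 and 15 in KO, or an RPKM of 0.662 and 2.03 against 0.704 and 1.48. The groups overlapped, with means of 1.35 ± 0.970 and 1.09 ± 0.551 (SD, n = 2) and a log2 difference of -0.13 ± 0.67 (SE), which was 0.21 on library totals. Gm50069, an antisense gene within it, had 4 reads in WT replicate 1, and whether counting used strand was not stated, so that reads of the pair cannot be told apart. For both substrates the difference above was smaller than its error, and its sign changed with the library left out, while footprints do not measure how fast a protein is degraded.

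All 5 genes passed the filter on low values. Klhl15 was the only one lower in KO with no overlap between groups, as were 20.3% of all genes tested, and Cul3 the only one higher with no overlap, as were 20.1%. With reads scaled to library totals instead, the groups of Rbx1 did not overlap either and KO was higher, as for 41.4% of all genes tested. These counts come from the contrast that chose Klhl15 and carry no further weight.

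Of the further substrates, Dclk1, a microtubule-associated kinase, received 13 and 10 reads in WT against 28 and 32 in KO. Its log2 difference was 0.46 ± 0.47 (SE), with an adjusted p of 0.757 (limma, Benjamini-Hochberg). Dcx, which stabilises microtubules in young neurons, had 1 read in KO replicate 1 and 0 in the others, and Dclk2 had 4, 2, 3 and 7 reads, so that neither entered the test.

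Differences of the related genes are read against the median over all genes tested, 0.00026 here, which scaling to library totals raised by 0.47. Around the scaffold and the RING subunit, 41 of 43 genes of the cullin-RING core, its neddylation enzymes and its regulators could be tested. None passed an adjusted p of 0.05 in limma, as against 0.106% of all genes tested, while 5 had an unadjusted p under 0.05, beside 832 of all 11363 genes. With voom on the recovered reads 0 were called, beside 0.695% of all genes, and 6 had an unadjusted p under 0.05, beside 1256 of all genes, and these all-gene counts hold for the other lists too. At 2-fold and an unadjusted p under 0.05, Cul4b, Cul2, Dcun1d5, Nae1 and Cul5 were higher in KO in limma and none was lower, beside 2.67% of all genes higher and 4.29% lower. In a fit of the 9877 protein-coding genes alone, 388 of all genes were higher and 395 lower by this rule, and on library totals 1579 of 11363 were higher and 168 lower. The lowest difference of the list was that of Cdc34, a ubiquitin-conjugating enzyme named after its values were seen, at -1.66 ± 0.68 (SE), with 7 and 21 reads in WT against 4 and 7 in KO and an adjusted p of 0.672 (limma, Benjamini-Hochberg). With voom it was the 1 gene of the list that was lower at 2-fold and an unadjusted p under 0.05. Cul2 and Cul5 are scaffolds of other cullin-RING ligases, as is Cul4b, and Nae1 and Dcun1d5 act in attaching NEDD8 to cullins. The median difference was 0.28 with 28 genes higher and 13 lower (0.80 on library totals), and it was 0.025 without WT replicate 1. Cul2 had 10 and 5 reads in WT against 53 and 34 in KO, with a log2 difference of 1.62 ± 0.40 (SE) and an adjusted p of 0.601 (limma, Benjamini-Hochberg). Dcun1d5 stood at 1.48 ± 0.42, the ubiquitin-conjugating enzyme Ube2d2a at -0.61 ± 0.56 and the ligase Arih2, a partner of neddylated cullins, at -0.39 ± 0.43 (SE), the last at 0.03 on library totals.

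The other BTB adaptors that were tested had differences between -0.87 and 1.72, above the -2.12 of Klhl15. On library totals Klhl15 stood at -1.61, a smaller size than the 1.93 of Enc1. Of 59 adaptor genes in the table, 42 were tested and 4 had no read in any library. Of the 42, 21 were higher and 21 lower, with a median of -0.011, which became 0.42 on library totals. None passed an adjusted p of 0.05 in limma, 3 had an unadjusted p under 0.05, and voom called 0 with 3 at an unadjusted p under 0.05. The 3 that also reached 2-fold, Enc1, Klhl25 and Kbtbd4, were higher in KO and none was lower, beside 2.67% of all genes higher and 4.29% lower. Kbtbd4, at 1.72, had 1 and 0 reads in WT against 6 and 11 in KO, and passed the filter only through its KO values. Klhl25 had 0 and 4 reads in WT against 17 and 14 in KO. Both WT values of Kbtbd4 and WT replicate 1 of Klhl25 lay under the floor of 3 reads. Enc1, a Kelch protein that binds actin, had 28 and 20 reads in WT against 135 and 80, with a difference of 1.36 ± 0.41 (SE) and an adjusted p of 0.650 (limma, Benjamini-Hochberg). Klhl7 stood at 0.89 ± 0.40, Klhl5 at -0.55 ± 0.53 and Klhl24 at -0.48 ± 0.42 (SE), the last at 0.02 on library totals. With Klhl15 chosen for its value, the gap between it and this list is a description.

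Of 27 PP2A subunits and regulators other than Ppp2r5b, 23 were tested, 14 of them higher and 9 lower, with a median of 0.15 (0.66 on library totals). In limma 0 passed an adjusted p of 0.05 and 0 an unadjusted p under 0.05, and voom called 0 with 1 at an unadjusted p under 0.05. Ppp2r5a, the B56 alpha paralog of Ppp2r5b, had an RPKM of 7.60 and 6.63 in WT against 3.21 and 4.12 in KO, with a difference of -0.80 ± 0.36 (SE) and an adjusted p of 0.676 (limma, Benjamini-Hochberg). On library totals its difference was -0.29. Ppp2r1b, a scaffold subunit of PP2A, stood at 0.83 ± 0.39, Cip2a, a PP2A inhibitor, at 0.84 ± 0.75, and Strn4, a striatin regulatory subunit, at -0.29 ± 0.50 (SE), or 0.26 on library totals.

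Of 34 genes of DNA end resection and double-strand break repair other than Rbbp8, 22 were tested, 16 of them higher and 6 lower. The median was 0.53 (1.03 on library totals), and 0.20 without WT replicate 1. In limma 0 passed an adjusted p of 0.05 and 3 had an unadjusted p under 0.05, while voom called 0 with 2 at an unadjusted p under 0.05. Nbn, Rpa2 and Mre11a reached 2-fold as well and were higher in KO, beside 2.67% of all genes tested. Nbn and Mre11a form the MRN complex with Rad50, which works with Rbbp8 on broken ends. Nbn had 5 and 4 reads in WT against 24 and 20 in KO, with a difference of 1.36 ± 0.35 (SE) and an adjusted p of 0.608 (limma, Benjamini-Hochberg). Rpa2, which coats single-stranded DNA, stood at 1.36 ± 0.53, the checkpoint kinase Atm at -0.19 ± 0.44 and the kinase partner Atrip at -0.17 ± 0.41 (SE), the last pair at 0.28 and 0.29 on library totals. With no overlap between the groups, 11 of these 22 genes were higher and 0 lower, beside 20.1% and 20.3% of all genes tested. The same counts were 12 and 5 of 41 for the cullin-RING genes, 9 and 5 of 42 for the BTB adaptors and 7 and 2 of 23 for the PP2A genes.

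**Figure D4:**
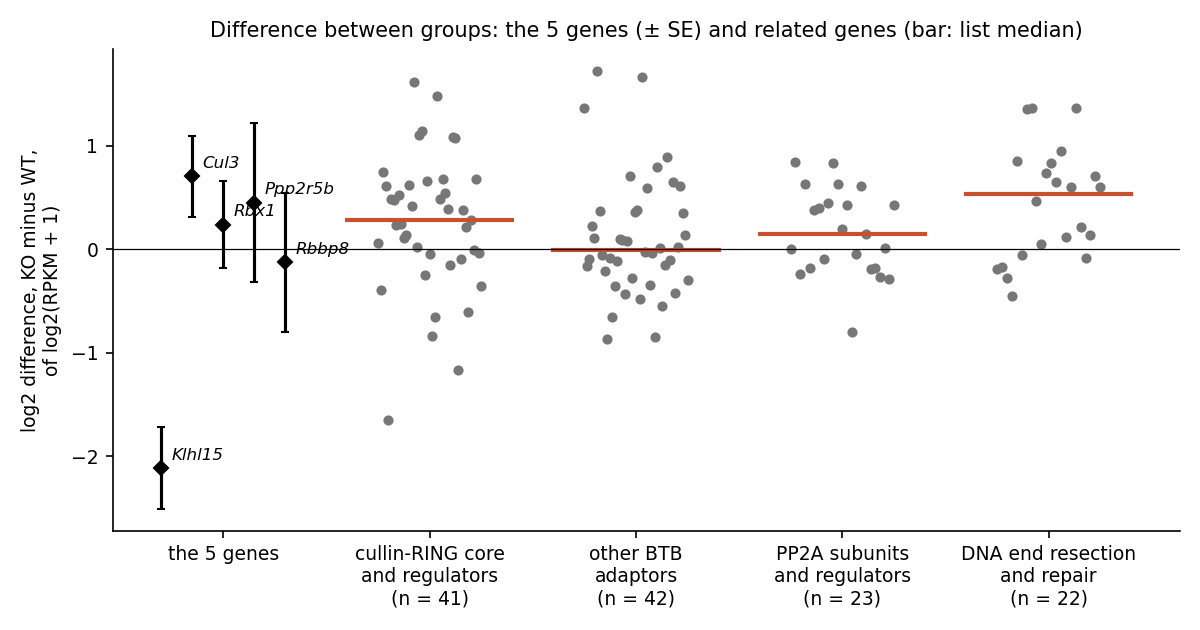
The log2 difference KO minus WT of log2(RPKM + 1) (y axis) is shown for the 5 genes as diamonds with their SE and for the tested genes of 4 related lists (x axis) as grey points, with red bars at the list medians. Klhl15, at -2.12, lies below every gene of the 4 lists, and the medians are 0.28, -0.011, 0.15 and 0.53 from left to right.

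The genes whose 4 levels followed those of Klhl15 most closely were ranked among 8518 protein-coding genes by the distance between log2(RPKM + 1) values centred on each gene's mean. The nearest were Ppp1r16a at 0.37, Cacng1 at 0.47, Foxo4 at 0.47, mt-Nd2 at 0.48 and Ankrd54 at 0.50. Only mt-Nd2, a mitochondrially encoded subunit of complex I, had more reads than Klhl15, with 57 and 67 in WT against 28 and 34 in KO. The others had between 20 and 50 reads over the 4 libraries. Likeness over 4 libraries mostly restates the difference between the groups.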

How the data were processed

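Ribo-seq was performed on 4 myoblast libraries, 2 WT and 2 labelled KO, grouped by their labels. As stated in the study's methods, single-end reads were cleared of low-quality, adapter, rRNA and tRNA sequences, aligned to mm10 (GRCm38) with TopHat2 and counted with HTSeq. Strand use and the handling of reads with several matches were not stated. The authors deposited RPKM values. Multiplied by gene length, 100.0% of these gave whole reads within 0.01 read. The implied denominators were 602863, 471136, 906990 and 807705 for WT 1, WT 2, KO 1 and KO 2, with totals of 648386, 642429, 704006 and 650210 reads. The values were therefore scaled to the typical gene, and a shift shared by most genes cannot be seen. A floor of 3 reads was an RPKM of 3.31 to 6.37 for a gene of 1 kb.

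For the related genes, limma 3.58.1 in R 4.3.3 (two-sided, mean-variance trend, Benjamini-Hochberg adjustment over all genes) was run on log2(RPKM + 1) for the 11363 genes whose RPKM averaged at least 1, which understates the differences of low genes. This scale also gave the descriptive differences of the 5 genes. The script was checked on simulated counts, where some unchanged genes were called. Changes were planted only in genes with many reads, so their recovery in genes with few reads was not checked. Sequences were read from GENCODE vM21 transcripts.

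The 5 genes and all lists were chosen with earlier results of these data known. Named from the lists were genes past the adjusted threshold and, among those with at least 40 reads, the 2 highest and 2 lowest differences. Likewise named were Eif5a, the further substrates and the 5 genes most like Klhl15. Genes past 2-fold in a list, overlapping genes, X-linked and marker genes were picked with their values in view. Alternatives were a pseudocount of 0.1, other filters, scaling to total reads, voom, a replicate block, protein-coding genes alone, each library left out and, added after the data were seen, removal of a GC and coding-length trend. With 2 libraries against 2, an exact permutation test cannot go below 0.333.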

Additional observations from a re-analysis of the deposited data

How the results depend on the processing

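Filters, protein-coding genes alone and the block cannot move a gene's difference. Of the 8 alternatives that can, the direction was that of the main setting in 8 for Klhl15, which was chosen by its value, in 8 for Cul3, 7 for Rbx1, 6 for Ppp2r5b and 5 for Rbbp8. A mean RPKM of at least 5 left out the last pair. Leaving out each library gave -2.40 to -1.83 for Klhl15, 0.53 to 0.88 for Cul3, -0.14 to 0.62 for Rbx1, -0.47 to 1.37 for Ppp2r5b and -0.56 to 0.31 for Rbbp8.

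Scaling to total reads raised the median of all genes by 0.47 and gave -1.61 for Klhl15, 1.28 for Cul3, 0.77 for Rbx1, 0.87 ± 0.83 (SE) for Ppp2r5b and 0.21 for Rbbp8. Ppp2r5b stood at 1.14 ± 1.13 without WT replicate 1 and 1.37 ± 0.92 without KO replicate 1, and Rbbp8 at -0.56 ± 0.36 without WT replicate 1, each larger than its SE. Klhl15 stood at -2.47 with a pseudocount of 0.1, at -2.50 with voom and at -2.44 with the GC and length trend removed, which left Cul3 at 0.29. The causes were not tested.

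The count of genes at an adjusted p under 0.05, 12 in limma, was 0 with a pseudocount of 0.1, no filter, a mean RPKM of at least 5, total reads, protein-coding genes alone, the GC and length trend removed and any library left out (430 to 1600 genes at an unadjusted p under 0.05 in the last), and 79 with voom. At 2-fold and an unadjusted p under 0.05 it was 791, of which 61.7% were lower. It was 469 with a mean RPKM of at least 5, 1747 with total reads (9.62% lower), 1224 with voom and 422 to 1459 with a library left out.

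Same-numbered WT and KO libraries did not deviate together (correlation 0.0575). With a replicate block the counts were 0 and 823.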
